A study of Rattus norvegicus with 9 samples.

Results

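Overexpression of cathepsin D (CTSD) was compared with an empty vector in cultured rat vascular smooth muscle cells of the thoracic aorta, with advanced glycation end products (AGEs) on the cells in both arms. The CTSD cells were transfected to overexpress CTSD and received AGEs at 200 µg/mL for 24 h, and the empty-vector AGEs cells carried the empty vector and received the same AGEs. A further group had the empty vector and bovine serum albumin (BSA) in place of AGEs. Each group had 3 RNA-seq libraries, so that the comparison rests on 6 of the 9 libraries. The empty-vector BSA libraries entered the filter on expression and the estimate of the spread, and are given as levels beside the main genes. They also entered the alternative scalings and trend removals described below. All groups were transfected, and cells without a vector, which the design text also lists, were not analysed here. The labels give neither the vector nor the species of its CTSD sequence, and no label tells whether libraries of 1 group are separate cultures, so the spread behind the p-values may be technical. The described genes are all those with at least 1 FPKM (fragments per kilobase, relative to library depth) in at least 3 of the 9 libraries, 8532 of the 32792 genes in the deposited table. The design text says that the comparison is to show what CTSD does in AGEs-treated cells, and the title names the change of smooth muscle state and glycolysis.

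Cathepsin D is an aspartic protease that is made in the endoplasmic reticulum as a proenzyme, sorted through the Golgi, and matured in acidic lysosomes, where it degrades proteins delivered by endocytosis and autophagy. AGEs are proteins modified by sugars, which accumulate in diabetes and in ageing vessels and are taken up by scavenger and other receptors. Vascular smooth muscle cells can move between a contractile state, with high levels of smooth muscle actin and its partners, and a synthetic state, in which they divide, migrate and secrete matrix.

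Ctsd (ENSRNOG00000020206, chromosome 1, 215541542 to 215553451, positions as deposited and with no build given) was highest in the CTSD libraries. It stood at 195, 199.7 and 203 FPKM in CTSD cells, against 13.2, 14.8 and 13.7 FPKM in empty-vector AGEs cells, and at 11.7, 14.6 and 12.9 FPKM in the empty-vector BSA libraries. The lowest CTSD library lay far above the highest of the other 6, which accords with the labels. Means were 199 ± 3.88 FPKM in CTSD cells and 13.9 ± 0.808 FPKM in empty-vector AGEs cells (± SD, n = 3 each, as for all such values here), a 14.3-fold ratio. On the log2(FPKM + 1) scale the fold change was 3.75 (SE 0.08, limma adjusted p = 2.29e-09). An exact two-sided permutation test of the 6 libraries gave p = 0.1, the smallest that 3 against 3 libraries allow (20 splits). The deposited values do not tell the endogenous transcript from that of the construct.

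The libraries held 4492328 to 5341559 fragments assigned to genes, worked out from the steps of the FPKM values, so that 3 fragments in a gene of 1 kilobase equal 0.562 to 0.668 FPKM. On the first principal component (32.4% of the variance) the CTSD libraries scored 18.5 to 21.07 and the empty-vector AGEs libraries -15.44 to -2.24, without overlap. Of the empty-vector AGEs libraries, replicate 3 lay closest to the BSA libraries (mean correlation across genes 0.9864 with its own group and 0.9856 with BSA). Smooth muscle identity could be checked only in part: 14 of 25 contractile genes were tested. Myh11, the smooth muscle myosin heavy chain, had 24 fragments over all 9 libraries, Cnn1 had 37 and Des had 9, while Actg2, Myocd, Pln and Kcnmb1 were listed at 0. Cnn1 reached at most 1.34 FPKM in any library, and Myh11, Mylk, Lmod1, Des, Synpo2 and Itga8 at most 0.301 FPKM. These contractile genes were thus detected, but at low levels in every group. A value of 0 in this table cannot be read as silence, since 12 of 13 mitochondrially encoded protein genes were also listed at 0 in all libraries.

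Markers of other cell types were low or uninformative. No endothelial and no epithelial or mesothelial marker passed the filter, and their summed levels reached at most 0.126 and 0.533 FPKM in a CTSD library, against 0.0977 and 0.259 FPKM in an empty-vector AGEs library. Of 12 macrophage markers 10 were at 0 everywhere, and the sum was 0.924 to 1.76 FPKM in CTSD cells, against 0.143 to 0.971 FPKM in empty-vector AGEs cells. The adventitial fibroblast markers summed to 18.6 to 21.0 FPKM in CTSD cells, against 10.9 to 12.9 FPKM in empty-vector AGEs cells, nearly all of it from Gsn, an actin-severing protein that smooth muscle cells also make (log2 fold change 0.73, SE 0.12, adjusted p = 0.00107). In this list 4 of 10 markers were at 0 in every library. The adipocyte markers summed to 394 to 418 FPKM in CTSD cells, against 298 to 318 FPKM in empty-vector AGEs cells, nearly all of it from the nuclear receptor gene Pparg (log2 fold change 0.37, SE 0.04, adjusted p = 0.000199), and 4 of 8 markers were at 0 in every library. The Schwann and neural markers summed to 13.1 to 15.8 FPKM in CTSD cells, against 11.8 to 12.4 FPKM in empty-vector AGEs cells, with 4 of 9 at 0 in every library. The part of other cell types in the results was not tested, and in bulk RNA fewer cells of a type and less RNA per cell cannot be told apart.

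Of the 8532 genes 2617 (30.7%) passed an adjusted p of 0.05 (limma, Benjamini-Hochberg over all tested genes), 1591 higher (18.6%) and 1026 lower (12%) with CTSD. Most of these changes were small. The median size was 0.43 log2 units, 981 of the called genes changed by at least 0.5 and 66 by at least 1, and the median over all tested genes was 0.055. The fold changes compare mean log2(FPKM + 1) values, which understates the change of genes near 1 FPKM. Called genes had a median level of 37.7 FPKM over the 6 libraries, against 13.05 FPKM for all tested genes. Shares called in lists of unlike level are therefore not like for like. No library of one group reached the other in 43.9% of the tested genes (26.2% with CTSD higher, 17.7% with CTSD lower), and in 2582 of the 2617 called genes. The balance of directions depended on the scaling: 60.8% of calls were higher as deposited, 49.0% after median-of-ratios scaling and 52.4% after quantile normalization. Below, a gene is said to rise or fall where it passed this test, and each list is described by its counts and its median beside these shares and the 0.055.

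**Figure D1:**
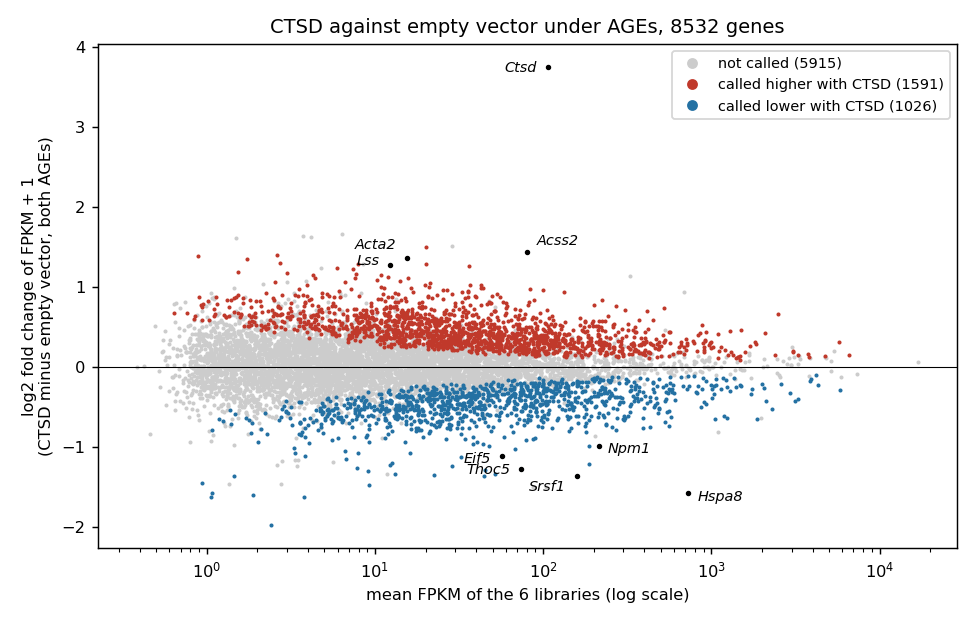
Mean FPKM over the 6 libraries (horizontal, log scale) against the log2 fold change of FPKM + 1 with CTSD (vertical) for 8532 genes, with 1591 called higher in red, 1026 called lower in blue and the rest in grey. Ctsd stands alone at 3.75, and most other called genes lie within 1 log2 unit of 0.

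Fold changes followed the density of genes along the chromosome. Density was counted as the listed genes that start within 0.5 Mb on either side of a gene's middle. Called genes that rose had a median of 30 such genes per Mb, those that fell had 16, and all tested genes had 20. Among 10 equal groups of genes by density, 39.6% rose and 5.04% fell in the densest group, and 7.85% rose and 15.7% fell in the sparsest. Across genes, which are not independent replicates, the rank correlation of density with the fold change was 0.28 (n = 8532). Between pairs of libraries within a group the same rank correlation was -0.02 to 0.01 for CTSD, -0.11 to 0.23 for empty-vector AGEs and -0.03 to 0.02 for empty-vector BSA. The difference of 1 pair of empty-vector AGEs libraries thus followed density nearly as closely as that of the groups. A rank correlation does not measure how large such a difference is. With this trend removed, an alternative added after seeing the data, 2290 genes passed, 1037 higher and 1253 lower, and 1934 of the original calls remained. The part of this pattern in the results was not tested. Beside each list stand its median, the range of its counts over the 19 alternatives tried (in the order in which the counts are given) and, for counts that moved by over 1.5 times, the counts with the density trend removed, with median-of-ratios scaling or without a library.

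**Figure D2:**
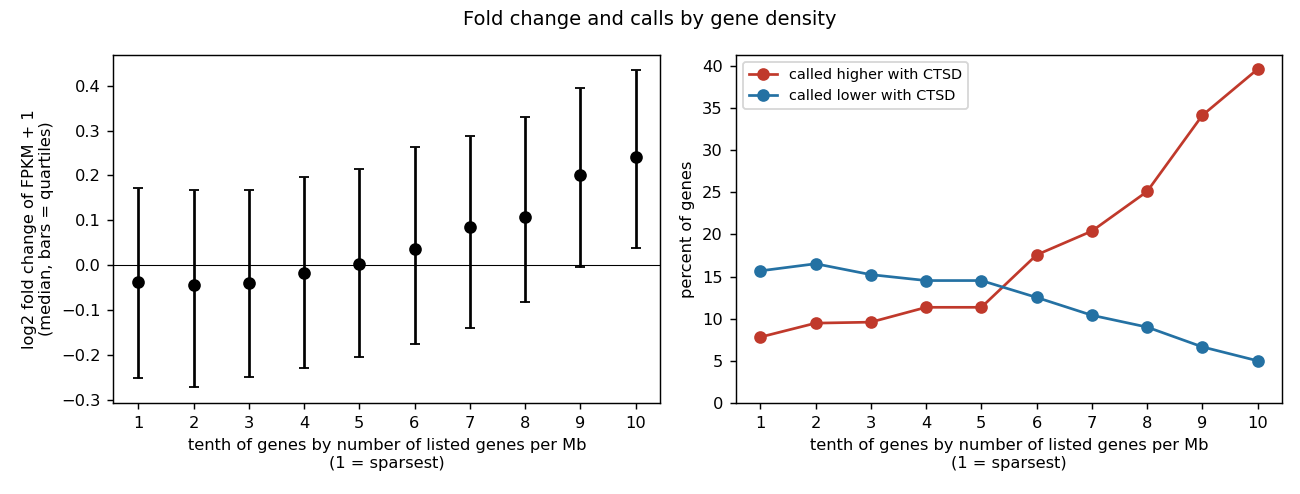
Tested genes in 10 equal groups from the sparsest (1) to the densest (10) neighbourhood. The left panel gives the median log2 fold change with quartiles, -0.04 in the sparsest and 0.24 in the densest group, and the right panel the percentage of genes called higher (7.85 in group 1, 39.6 in group 10) and lower (15.7 and 5.04).

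Besides Ctsd, the genes with the steepest rises are given here among called genes with a proper symbol, at least 5 FPKM on average in the higher group, a model of 300 bases or more and no overlap of libraries. Acss2 (ENSRNOG00000018755, chromosome 3, 151032952 to 151075856), which makes acetyl-CoA from acetate, had 114, 121 and 119 FPKM in CTSD cells, against 44.1, 44.96 and 40.3 FPKM in empty-vector AGEs cells. Its BSA libraries had 76.2, 85.8 and 80.2 FPKM, between both. The CTSD values did not overlap either of the other groups (log2 fold change 1.43, SE 0.06, adjusted p = 6.61e-07). Acta2 (ENSRNOG00000058039, chromosome 1, 252537615 to 252550394), the smooth muscle actin gene, had 21.03, 22.96 and 24.5 FPKM in CTSD cells, against 8.38, 8.57 and 7.81 FPKM in empty-vector AGEs cells, and 10.1, 8.59 and 6.72 FPKM with BSA. All CTSD libraries stood clear of the other 6 (log2 fold change 1.36, SE 0.13, adjusted p = 5.17e-05). Cnih2, an auxiliary subunit of AMPA-type glutamate receptors, had 27.5, 25.5 and 33.8 FPKM in CTSD cells, against 11.5, 11.9 and 10.3 FPKM in empty-vector AGEs cells (log2 fold change 1.29, SE 0.13, adjusted p = 7.38e-05). The organic cation transporter family gene Slc22a17 rose (1.24, adjusted p = 0.000201), as did Tp53inp2, a nuclear protein that moves to autophagosomes (1.23, adjusted p = 0.000136), and Cacna1g, a T-type calcium channel subunit (1.16, adjusted p = 5.17e-05). Slc25a23, a calcium-dependent mitochondrial carrier of ATP-Mg and phosphate (1.12, adjusted p = 2.29e-05), Dnm1, a dynamin of endocytosis (1.12, adjusted p = 0.000158), Hoxb8, a homeobox transcription factor (1.15, adjusted p = 0.0047), Mpnd (1.11, adjusted p = 0.00155) and Fbxw4, an F-box protein (1.09, adjusted p = 0.000461), completed this end together with Nagk, Lss and Insig1, given below. In these genes no CTSD library overlapped an empty-vector AGEs library, which the choice of genes required.

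The steepest falls are given under the same limits. Hspa8 (ENSRNOG00000034066, chromosome 8, 44990014 to 44993179), the constitutive cytosolic Hsp70 chaperone, had 463, 316 and 327 FPKM in CTSD cells, against 1132, 1045 and 1083 FPKM in empty-vector AGEs cells. It was 834, 809 and 786 FPKM in BSA cells, and CTSD replicate 1 lay above the other CTSD libraries but well below all 6 others (log2 fold change -1.58, SE 0.12, adjusted p = 1.25e-05). Srsf1 (ENSRNOG00000050323, chromosome 10, 75335146 to 75341197), an SR protein that promotes exon inclusion, had 84.8, 91.4 and 88.8 FPKM in CTSD cells, against 223, 225 and 238 FPKM in empty-vector AGEs cells, and 207, 211 and 191 FPKM with BSA. The CTSD libraries were tightly grouped and far below the rest (log2 fold change -1.36, SE 0.05, adjusted p = 2.77e-07). Thoc5, a subunit of the THO complex that couples transcription to mRNA export, had 40.03, 45.1 and 44.5 FPKM in CTSD cells, against 108, 105 and 103 FPKM in empty-vector AGEs cells, without overlap (log2 fold change -1.27, SE 0.06, adjusted p = 6.61e-07). Spata5, an AAA ATPase of ribosome maturation, fell (-1.12, adjusted p = 1.42e-05), as did Lin9, a subunit of the DREAM complex that regulates cell cycle genes (-1.11, adjusted p = 0.000197), and Orc5, of the origin recognition complex (-1.07, adjusted p = 0.0012). Tmx1, a thioredoxin-related protein of the endoplasmic reticulum membrane (-1.05, adjusted p = 0.000296), Fubp1, a single-strand DNA binding regulator of Myc (-0.99, adjusted p = 1.39e-05), and Zmpste24, the protease that matures prelamin A (-0.96, adjusted p = 1.61e-05), were also lower.

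**Figure D3:**
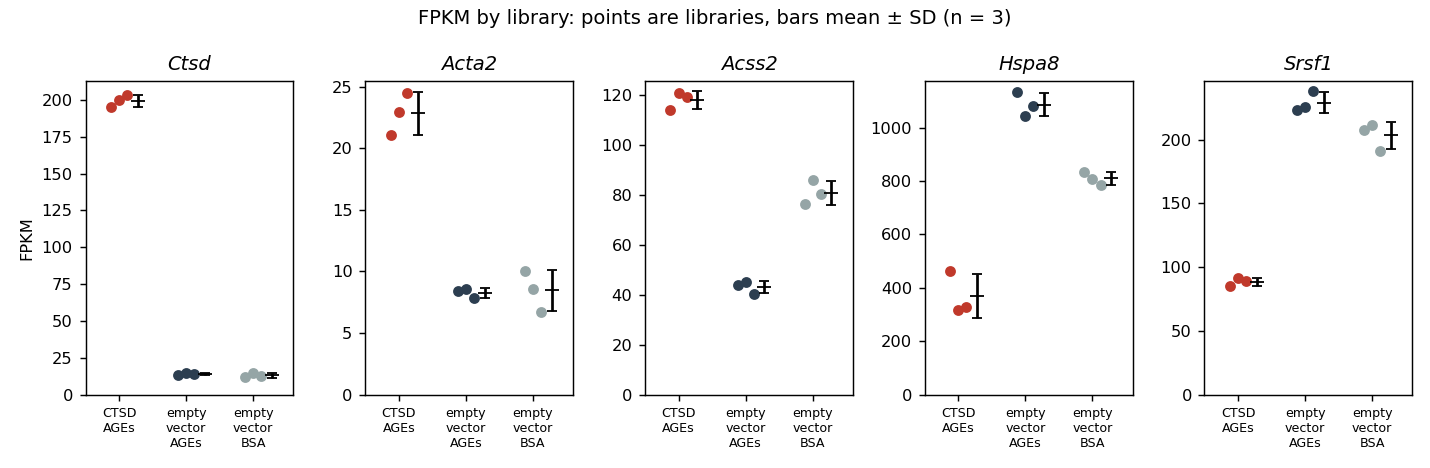
FPKM of Ctsd, Acta2, Acss2, Hspa8 and Srsf1 in each library (points), with mean ± SD beside them (n = 3), for CTSD cells, empty-vector AGEs cells and empty-vector BSA cells from left to right on linear axes from 0. In each panel the CTSD libraries lie apart from the others, above for Ctsd, Acta2 and Acss2 and below for Hspa8 and Srsf1.

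Among the lysosomal enzymes that work beside cathepsin D, part of the genes rose. Of 17 tested hydrolases and cofactors 7 rose and 0 fell (median 0.33, range 5 to 8 and 0 throughout). Arsa, which removes sulphate from sulphatides, averaged 7.89 ± 1.11 FPKM in CTSD cells and 4.37 ± 0.419 FPKM in empty-vector AGEs cells (0.72, adjusted p = 0.00493). Neu1, the lysosomal sialidase, had 49.3 ± 8.19 FPKM in CTSD cells and 30.5 ± 1.23 FPKM in empty-vector AGEs cells (0.66, adjusted p = 0.00138), below which stood Hexa, a subunit of the hexosaminidase that degrades gangliosides (0.65, adjusted p = 0.00372), and Plbd2 (0.40, adjusted p = 0.00201). Of the other 6 tested cathepsins and relatives 2 rose, Ctsf, a cysteine cathepsin (0.65, adjusted p = 0.0159), and Ctsa, a serine carboxypeptidase that protects neuraminidase (0.33, adjusted p = 0.0026). With the density trend removed both lost the call (adjusted p = 0.0645 and 0.163), and Ctsf also without CTSD replicate 1 (adjusted p = 0.0593). The E-box CACGTG, which the lysosomal regulator TFEB and other factors bind, was searched in RefSeq promoters of 300 bases. It was in 2 of the 3 cathepsin risers and 0 of the 2 hydrolase risers with such a promoter. Its share was 6.65% of all promoters and 10.2% of those of tested genes. The cathepsin risers here include Ctsd, whose endogenous transcript cannot be told from that of the construct. With so few promoters the counts say nothing about a regulator.

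Lysosomal membrane and proton pump genes were called in shares (31.58% and 35.29%) near the 30.7% of all tested genes. Of 19 membrane and sorting genes 6 rose and 0 fell (median 0.13, range 2 to 7 and 0 to 2, 2 and 0 with the density trend removed, 5 and 1 with median-of-ratios scaling). Lamtor5 (0.36, adjusted p = 0.00356) and Lamtor1 (0.29, adjusted p = 0.00535) encode subunits of the Ragulator complex, which holds mTORC1 at the lysosome. Of 17 subunits and accessory proteins of the vacuolar proton pump 6 rose and 0 fell (median 0.12, range 3 to 8 and 0 to 2, 3 and 1 with the density trend removed, 5 and 2 with median-of-ratios scaling, 1 fell without empty-vector AGEs replicate 3). The riser Atp6v1g2 would not have passed the filter without the CTSD libraries, where it is high. It had 1.77 ± 0.330 FPKM in CTSD cells and 0.511 ± 0.188 FPKM in empty-vector AGEs cells, so its call is no support for the list. Atp6v1f, of the cytosolic pump domain, had 76.4 ± 12.5 FPKM in CTSD cells and 43.1 ± 2.33 FPKM in empty-vector AGEs cells (0.80, adjusted p = 0.000235), and Atp6ap1, an assembly factor, 196 ± 6.33 FPKM in CTSD cells and 142 ± 9.74 FPKM in empty-vector AGEs cells (0.46, adjusted p = 0.00028). In autophagy 9 of 32 genes rose and 3 fell (median 0.09, range 6 to 9 and 1 to 4, 1 fell without CTSD replicate 3 or empty-vector AGEs replicate 1 or empty-vector BSA replicate 1 or 2). The risers included Wipi1, which binds phosphoinositides on forming autophagosomes (0.81, adjusted p = 0.000547), and the ATG8-family genes Gabarapl1 (0.68, adjusted p = 6.64e-05), Map1lc3a (0.60, adjusted p = 0.00107) and Gabarap (0.44, adjusted p = 2.29e-05). Gabarap was the most abundant of these, at 1075 ± 15.3 FPKM in CTSD cells and 795 ± 24.1 FPKM in empty-vector AGEs cells.

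In the contractile list 11 of 14 tested genes rose and 0 fell (median 0.35, range 7 to 11 and 0 throughout, 7 and 0 with the density trend removed). The list has 25 genes, and Myh11, Cnn1, Mylk, Lmod1, Des and Myocd are among those that did not pass the filter. The count thus does not cover them. Tagln, the actin-binding protein transgelin, had 24.4, 23.3 and 19.2 FPKM in CTSD cells, against 14.1, 10.3 and 9.396 FPKM in empty-vector AGEs cells. Its groups did not overlap (log2 fold change 0.94, SE 0.16, adjusted p = 0.00129). Tpm2, a tropomyosin, had 131, 133 and 132 FPKM in CTSD cells, against 79.5, 83.8 and 77.5 FPKM in empty-vector AGEs cells, and 109, 111 and 98.2 FPKM with BSA. The CTSD libraries were the highest of all 9 (log2 fold change 0.71, SE 0.06, adjusted p = 1.89e-05). Csrp1, a LIM protein of smooth muscle (0.58, adjusted p = 0.00145), and Tpm1 (0.44, adjusted p = 0.00165) rose less. Cnn2, a calponin, rose by 0.38 and lost the call with the density trend removed (adjusted p = 0.142). In the same cells 3 of 10 genes of the synthetic state rose and 1 fell (median 0.18, range 2 to 5 and 1 throughout). The matrix protein genes Thbs1 (0.85, adjusted p = 0.00117) and Fn1 (0.47, adjusted p = 0.00125) rose, and Vim, the intermediate filament vimentin, fell, at 1026 ± 10.1 FPKM in CTSD cells and 1243 ± 45.9 FPKM in empty-vector AGEs cells (-0.28, adjusted p = 0.000362). Thbs1 averaged 20.7 ± 1.29 FPKM in BSA cells, above both AGEs groups. The CArG box of serum response factor, CC and GG with 6 A or T bases between them, was in 2 of the 10 contractile risers with a RefSeq promoter of 300 bases, against 1.64% of all promoters. Uncalled contractile genes were not counted, so whether the box goes with the rise was not tested.

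The general actin machinery moved both ways. Of 32 actin and non-muscle myosin genes 11 rose and 7 fell (median 0.09, range 7 to 12 and 7 to 11, 7 and 11 with the density trend removed). Both alpha subunits of the capping protein that closes filament ends fell, Capza1 (-0.59, adjusted p = 0.00039) and Capza2 (-0.58, adjusted p = 0.00036). So did Actr2 (-0.58, adjusted p = 0.000194) and Actr3 (-0.45, adjusted p = 0.000302), the actin-related subunits of the branching Arp2/3 complex. Wdr1, a cofactor of cofilin in filament disassembly (0.40, adjusted p = 0.000355), and Myl12a, a regulatory light chain of non-muscle myosin (0.44, adjusted p = 0.000813), rose. Of 21 integrin and focal adhesion genes 5 rose and 1 fell (median 0.13, range 3 to 6 and 0 to 2, 3 and 2 with the density trend removed, 0 fell without CTSD replicate 1 or 2 or empty-vector AGEs replicate 3). Their share called (28.57%) was near the 30.7% of all tested genes, so this count is no result about the list. The risers included Tns2, a tensin that links integrins to actin (0.68, adjusted p = 0.00416).

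Matrix genes that passed the test were nearly all higher. Of 23 tested matrix proteins 12 rose and 0 fell (median 0.45, range 9 to 16 and 0 throughout). Col5a1, the alpha 1 chain of type V collagen, had 44.7, 49.3 and 48.8 FPKM in CTSD cells, against 23.5, 24.2 and 25.2 FPKM in empty-vector AGEs cells. The groups did not overlap, and BSA cells averaged 36.3 ± 1.06 FPKM (log2 fold change 0.94, SE 0.07, adjusted p = 8.99e-06). Its partner chain Col5a2 had 37.8 ± 3.83 FPKM in CTSD cells and 25.3 ± 2.07 FPKM in empty-vector AGEs cells (0.56, adjusted p = 0.00207), and the basement membrane collagen gene Col4a1 14.3 ± 2.61 FPKM in CTSD cells and 7.35 ± 0.488 FPKM in empty-vector AGEs cells (0.86, adjusted p = 0.00115). Sparc, a collagen-binding glycoprotein (0.58, adjusted p = 3.62e-05), Efemp2, needed for elastic fibres (0.74, adjusted p = 0.000476), and Col16a1 (0.84, adjusted p = 0.00213) also rose. Of 21 enzymes and inhibitors that process matrix 14 rose and 1 fell (median 0.34, range 13 to 14 and 1 to 2, 13 and 2 with the density trend removed, 2 fell without empty-vector AGEs replicate 3). Pcolce, which enhances cleavage of procollagen, had 335, 332 and 359 FPKM in CTSD cells, against 206, 202 and 195 FPKM in empty-vector AGEs cells. No library of one group reached the other (log2 fold change 0.77, SE 0.05, adjusted p = 4.89e-06). The lysyl oxidase genes Loxl2 (0.92, adjusted p = 0.00141), Loxl3 (0.69, adjusted p = 0.0016) and Loxl1 (0.65, adjusted p = 0.000147), which cross-link collagen and elastin, rose, as did P4ha3, a collagen prolyl hydroxylase subunit (0.68, adjusted p = 0.00515), and P3h4, part of a collagen modification complex (0.56, adjusted p = 0.000321). In the list of matricellular genes and targets of the mechanosensitive regulator YAP 6 of 15 rose and 1 fell (median 0.20, range 4 to 6 and 0 to 2, 0 fell without CTSD replicate 3 or empty-vector AGEs replicate 1 or 2, 2 fell without empty-vector BSA replicate 2), including the thrombospondin gene Thbs3 (0.65, adjusted p = 0.00245) and Ankrd1, a muscle ankyrin repeat protein (0.58, adjusted p = 0.000473).

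Sterol synthesis is controlled by SREBP transcription factors, which INSIG proteins hold in the endoplasmic reticulum when sterol is plentiful. Of 18 genes of sterol synthesis and uptake 13 rose and 0 fell (median 0.53, range 11 to 15 and 0 throughout). The genes cover the pathway from its early to its late steps. Hmgcs1, which joins acetyl-CoA units into HMG-CoA, had 285, 294 and 281 FPKM in CTSD cells, against 166, 158 and 155 FPKM in empty-vector AGEs cells. The highest empty-vector AGEs library stayed well below the lowest CTSD library (log2 fold change 0.84, SE 0.06, adjusted p = 8.68e-06). Mvd (0.97, adjusted p = 0.000502) and Fdps (0.92, adjusted p = 0.000972) act in the isoprenoid steps, and Lss closes the first sterol ring. Lss had 17.1, 19.3 and 17.1 FPKM in CTSD cells, against 6.03, 7.38 and 6.93 FPKM in empty-vector AGEs cells. These 2 sets of libraries did not overlap (log2 fold change 1.28, SE 0.12, adjusted p = 3.71e-05). Dhcr7, of the last step to cholesterol (0.71, adjusted p = 0.00154), the feedback regulator Insig1 (1.12, adjusted p = 0.000531) and the transcription factor gene Srebf2 (0.61, adjusted p = 0.00158) rose too. The sterol regulatory element that SREBPs bind, searched on both strands as TCAC, 1 base of any kind and CCAC, was in 0 of the 9 sterol risers and 0 of the 5 fatty acid risers with a RefSeq promoter of 300 bases, against 1.13% of all promoters. With letters this rare and so few promoters, counts of 0 say nothing about a regulator.

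Fatty acid synthesis draws on the same acetyl-CoA. Here 7 of 20 genes rose and 1 fell (median 0.18, range 5 to 7 and 1 to 2, 7 and 2 with median-of-ratios scaling). Next to Acss2, the mitochondrial citrate carrier gene Slc25a1 had 80.5, 68.1 and 67.5 FPKM in CTSD cells, against 40.9, 37.2 and 38.2 FPKM in empty-vector AGEs cells, without overlap (log2 fold change 0.87, SE 0.08, adjusted p = 3.4e-05). Acly, which turns citrate into cytosolic acetyl-CoA, had 309 ± 7.95 FPKM in CTSD cells and 214 ± 2.48 FPKM in empty-vector AGEs cells (0.53, adjusted p = 1.42e-05). Scd2, a stearoyl-CoA desaturase (0.58, adjusted p = 0.000752), and Lpin1, a phosphatidate phosphatase (0.83, adjusted p = 0.0028), rose as well. Fasn, the fatty acid synthase, rose by 0.52 (adjusted p = 0.0121) but not with the trend of gene length (adjusted p = 0.0659) or density (adjusted p = 0.145) removed. Acsl5, a long-chain acyl-CoA synthetase, fell (-0.73, adjusted p = 3.68e-05).

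Glycolysis, which the study's title names, did not move as 1 block. Of 21 genes 6 rose and 2 fell (median 0.16, range 4 to 8 and 2 to 4, 4 fell without CTSD replicate 1). The fold change, called or not, was above 0 in 17 and below 0 in 4, against 56.7% above 0 over all tested genes. Libraries did not overlap in 9 genes with CTSD higher and in 2 with CTSD lower. Of the genes given here, Slc2a1, Hk1, Hk2 and Ldha were added after their values were seen. At the entry, the glucose transporter gene Slc2a1 had 106, 114 and 107 FPKM in CTSD cells, against 127, 129 and 130.1 FPKM in empty-vector AGEs cells. The CTSD libraries were the lower ones, without overlap (log2 fold change -0.24, SE 0.05, adjusted p = 0.00384), and BSA cells had 94.4, 92.3 and 99.05 FPKM. The hexokinase genes did not pass, Hk1 with 40.4 ± 1.03 FPKM in CTSD cells and 38.6 ± 1.05 FPKM in empty-vector AGEs cells (0.06, adjusted p = 0.475) and Hk2 with 2.92 ± 0.749 FPKM in CTSD cells and 2.89 ± 0.4503 FPKM in empty-vector AGEs cells (0.003, adjusted p = 0.993). The muscle phosphofructokinase gene Pfkm had 64.03, 61.6 and 61.3 FPKM in CTSD cells, against 49.8, 45.5 and 44.01 FPKM in empty-vector AGEs cells. Here the CTSD libraries were the higher ones (log2 fold change 0.42, SE 0.06, adjusted p = 0.000545). In the lower part, Pgam1, a phosphoglycerate mutase (0.36, adjusted p = 0.000288), Pkm, a pyruvate kinase (0.26, adjusted p = 0.000261), and Eno3, the muscle enolase (0.69, adjusted p = 0.00609), rose. Ldha, the lactate dehydrogenase subunit that favours lactate, had 32.3, 25.8 and 30.97 FPKM in CTSD cells, against 30.9, 29.3 and 26.4 FPKM in empty-vector AGEs cells. Its groups overlapped and it did not pass the test (0.04, adjusted p = 0.824). The lactate and pyruvate transporter gene Slc16a1 fell, with 21.3 ± 2.25 FPKM in CTSD cells and 32.2 ± 0.468 FPKM in empty-vector AGEs cells (-0.58, adjusted p = 0.000733). In the pentose phosphate branch 3 of 5 genes rose and 0 fell (median 0.15, range 1 to 3 and 0 to 1, 1 and 0 with the density trend removed, 2 and 1 with median-of-ratios scaling, 1 fell without CTSD replicate 3 or empty-vector AGEs replicate 1). In the hexosamine branch 1 of 8 rose and 2 fell (median -0.16, range 0 to 1 and 0 to 3, 0 fell without CTSD replicate 2 or 3, 1 fell without empty-vector AGEs replicate 2 or 3 or empty-vector BSA replicate 2). The riser Nagk, which salvages N-acetylglucosamine, had 4.63, 7.91 and 6.46 FPKM in CTSD cells, against 2.14, 1.901 and 2.77 FPKM in empty-vector AGEs cells, without overlap (log2 fold change 1.15, SE 0.20, adjusted p = 0.0017).

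Among genes of mitochondrial oxidation more rose than fell, as among all called genes (60.8% higher). Only the respiratory chain list had a median above the 0.055 of all tested genes. With the density trend removed, risers outnumbered fallers in that list but not in the citric acid cycle list. Of 42 subunits of the respiratory complexes and the ATP synthase that the nucleus encodes 15 rose and 1 fell (median 0.27, range 9 to 17 and 1 to 3, 9 and 3 with the density trend removed, 12 and 2 with median-of-ratios scaling, 2 fell without CTSD replicate 2). A further 38 listed members were at 0 in all libraries. Ndufv2, of complex I, had 24.6 ± 3.27 FPKM in CTSD cells and 13.6 ± 1.94 FPKM in empty-vector AGEs cells (0.81, adjusted p = 0.00163), while Ndufs1, the largest complex I subunit, had 31.3 ± 2.97 FPKM in CTSD cells and 43.3 ± 0.294 FPKM in empty-vector AGEs cells (-0.46, adjusted p = 0.00103). Cyc1, the cytochrome c1 of complex III (0.50, adjusted p = 0.000354), Cox7a2l, which joins complexes III and IV (0.50, adjusted p = 0.00151), Ndufa6 (0.40, adjusted p = 0.000732) and the electron carrier gene Cycs (0.39, adjusted p = 0.0017) rose. Around pyruvate dehydrogenase and the citric acid cycle 9 of 30 genes rose and 5 fell (median 0.05, range 4 to 9 and 4 to 6, 4 and 5 with the density trend removed). Parts of the dehydrogenase complex fell, Pdhx, which anchors its E3 subunit (-1.004, adjusted p = 0.00103), and Dld, that E3 subunit (-0.57, adjusted p = 0.00955). Pdk2, a kinase that inhibits the complex, rose, with 74.3 ± 1.09 FPKM in CTSD cells and 49.4 ± 3.01 FPKM in empty-vector AGEs cells (0.58, adjusted p = 8.87e-05). Idh2, the mitochondrial NADP-dependent isocitrate dehydrogenase, rose (0.52, adjusted p = 0.000355), and Sucla2, a succinyl-CoA ligase subunit, fell (-0.74, adjusted p = 0.000261).

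The heat shock factor HSF1 drives many cytosolic chaperone genes through heat shock elements, repeats of GAA in alternating orientation. Of 25 tested cytosolic chaperones and co-chaperones 11 fell and 3 rose (median -0.14, range 10 to 15 and 1 to 3, 14 and 1 with median-of-ratios scaling). The Hspa8 fall stood out in size. Dnaja1, an Hsp40 partner of Hsp70, had 122, 126 and 126 FPKM in CTSD cells, against 238, 238 and 267 FPKM in empty-vector AGEs cells. The CTSD libraries were the lower ones by a clear gap (log2 fold change -0.98, SE 0.06, adjusted p = 3.48e-06). Chordc1, an Hsp90 co-chaperone (-0.63, adjusted p = 0.00102), Dnajc7 (-0.58, adjusted p = 1.35e-05), Dnaja2 (-0.50, adjusted p = 5.49e-05) and Hsph1, an Hsp70 exchange factor (-0.42, adjusted p = 0.000882), fell less. Promoters of 300 bases (250 before to 50 after the start, RefSeq, build GRCr8) were found for 10 of the 11 genes that fell, and 4 of these, Hspa8, Hsph1, Dnaja1 and Chordc1, held a heat shock element on either strand, searched as GAA, TTC and GAA with 2 bases of any kind between them. The same letters were in 0.736% of all 27457 promoters and in 0.432% of the 6249 promoters of tested genes. They were in 0 of the 3 chaperone risers. Uncalled chaperones were not counted, so whether the element goes with the fall within this list was not tested. The promoters with the largest falls are shown, with the matches in capitals, which in Chordc1 overlap each other.
Hspa8 (chr8:50080264-50080563, plus strand): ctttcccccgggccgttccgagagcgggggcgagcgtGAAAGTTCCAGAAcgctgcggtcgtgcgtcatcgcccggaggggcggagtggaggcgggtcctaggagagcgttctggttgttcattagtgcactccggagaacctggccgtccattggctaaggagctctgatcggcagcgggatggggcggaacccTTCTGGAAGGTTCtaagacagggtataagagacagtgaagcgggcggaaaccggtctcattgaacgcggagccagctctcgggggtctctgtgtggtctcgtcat
Dnaja1 (chr5:60638154-60638453, plus strand): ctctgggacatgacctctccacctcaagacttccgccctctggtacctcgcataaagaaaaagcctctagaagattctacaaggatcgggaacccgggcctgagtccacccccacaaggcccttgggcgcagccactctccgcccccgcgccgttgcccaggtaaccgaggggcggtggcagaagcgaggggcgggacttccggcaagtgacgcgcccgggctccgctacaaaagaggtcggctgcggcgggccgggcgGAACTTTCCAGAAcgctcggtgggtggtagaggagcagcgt
Chordc1 (chr8:23650571-23650870, plus strand): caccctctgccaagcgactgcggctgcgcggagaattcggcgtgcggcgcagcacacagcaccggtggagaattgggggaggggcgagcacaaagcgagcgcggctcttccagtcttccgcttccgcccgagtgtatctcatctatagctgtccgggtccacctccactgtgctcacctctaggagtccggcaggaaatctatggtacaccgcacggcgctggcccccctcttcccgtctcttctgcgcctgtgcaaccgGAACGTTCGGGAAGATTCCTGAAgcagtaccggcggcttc
A match is a description of letters, and no match says only that these letters are not in this window.

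In other folding and degradation lists of the cytosol more genes fell than rose. Of 12 subunits of the chaperonin TRiC, which folds actin and tubulin, and of its partner prefoldin 6 fell and 1 rose (median -0.26, range 5 to 6 and 1 throughout). Cct8 had 145 ± 5.06 FPKM in CTSD cells and 229 ± 7.81 FPKM in empty-vector AGEs cells (-0.66, adjusted p = 8.47e-06), with Cct6a (-0.64, adjusted p = 8.68e-06) and Cct4 (-0.60, adjusted p = 8.68e-06) close to it, and the prefoldin gene Pfdn5 was the riser (0.47, adjusted p = 0.000133). Of 42 proteasome genes 18 fell and 2 rose (median -0.13, range 16 to 20 and 1 to 3, 20 and 1 with the density trend removed, 1 rose without CTSD replicate 3 or empty-vector AGEs replicate 3). Psmc6, an ATPase of the regulatory particle, had 59.8, 59.9 and 66.6 FPKM in CTSD cells, against 110.4, 105 and 132 FPKM in empty-vector AGEs cells. Its groups did not overlap (log2 fold change -0.89, SE 0.09, adjusted p = 6.09e-05). Psmd14, the deubiquitinase of the lid (-0.64, adjusted p = 2.15e-05), Psma2, of the catalytic core (-0.60, adjusted p = 0.000182), Psmd1 (-0.52, adjusted p = 0.000104) and Psmc1 (-0.50, adjusted p = 2.29e-05) also fell. In mitochondria 3 of 10 chaperones and proteases rose and 3 fell (median 0.01, range 1 to 4 and 2 to 4, 1 and 3 with the density trend removed, 1 and 3 with median-of-ratios scaling, 1 rose without CTSD replicate 3). The fallers Hspa9, the mitochondrial Hsp70 (-0.34, adjusted p = 0.000407), and Clpx (-0.39, adjusted p = 0.00688) held under every alternative tried.

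In the endoplasmic reticulum the genes that passed were higher. Of 28 folding and stress genes 12 rose and 0 fell (median 0.19, range 9 to 12 and 0 to 1). Xbp1, which switches on genes of the unfolded protein response, had 81.9, 89.2 and 84.1 FPKM in CTSD cells, against 53.2, 51.95 and 48.3 FPKM in empty-vector AGEs cells, and 79.6, 66.7 and 65.02 FPKM with BSA. Calr, the calcium-binding chaperone calreticulin, had 1756, 1753 and 1695 FPKM in CTSD cells, against 1243, 1278 and 1234 FPKM in empty-vector AGEs cells, and 1641, 1709.9 and 1619 FPKM with BSA. For both genes all CTSD libraries were above all empty-vector AGEs libraries (log2 fold change 0.72, SE 0.08, adjusted p = 0.00011 for Xbp1, and log2 fold change 0.47, SE 0.04, adjusted p = 1.35e-05 for Calr). Manf, a secreted stress-induced factor (0.58, adjusted p = 2.41e-05), Sdf2l1 (0.56, adjusted p = 0.00069), Herpud1, of endoplasmic reticulum degradation (0.53, adjusted p = 0.00292), and Hyou1, a large Hsp70 relative (0.46, adjusted p = 5.15e-05), rose by about as much. ATF6 and XBP1 act through the endoplasmic reticulum stress element, a CCAAT box followed at a fixed distance by CCACG. It was searched on both strands as CCAAT, 9 bases of any kind and CCACG, so that each match also holds the CCAAT letters bound by NF-Y. It was in 4 of the 10 risers with a RefSeq promoter (Hspa5, Hsp90b1, Calr and Xbp1), in 0.0765% of all promoters and in 0.176% of those of tested genes, and CCAAT alone was in all 10, against 37.7% of all promoters. The amino acid response element of ATF4, searched as TGATG, 1 base of any kind and AA, was in 1 of these 10 promoters, against 3.82% of all. CCAAT was also in 7 of 9 sterol, 5 of 5 fatty acid and 6 of 10 contractile risers and 6 of 10 cytosolic chaperone fallers. It was in 42.5% of all risers with a promoter. Uncalled genes of the list were not counted, so whether an element goes with the rise was not tested. The promoters of the genes with the largest rises among those with the stress element are shown with that element in capitals.
Xbp1 (chr14:84604373-84604672, plus strand): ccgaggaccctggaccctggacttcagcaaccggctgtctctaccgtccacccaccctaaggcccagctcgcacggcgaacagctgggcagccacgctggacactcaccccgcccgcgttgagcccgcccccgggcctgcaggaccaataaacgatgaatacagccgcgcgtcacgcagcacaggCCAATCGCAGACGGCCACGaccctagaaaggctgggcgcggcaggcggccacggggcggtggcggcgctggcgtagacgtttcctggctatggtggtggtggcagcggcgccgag
Calr (chr19:40213117-40213416, plus strand): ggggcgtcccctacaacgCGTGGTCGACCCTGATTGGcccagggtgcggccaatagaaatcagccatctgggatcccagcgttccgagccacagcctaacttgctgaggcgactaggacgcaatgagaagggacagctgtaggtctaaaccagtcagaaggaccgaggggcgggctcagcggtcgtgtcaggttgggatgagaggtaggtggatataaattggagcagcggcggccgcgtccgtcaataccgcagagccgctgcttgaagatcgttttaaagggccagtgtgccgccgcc
Hsp90b1 (chr7:23012244-23012543, minus strand): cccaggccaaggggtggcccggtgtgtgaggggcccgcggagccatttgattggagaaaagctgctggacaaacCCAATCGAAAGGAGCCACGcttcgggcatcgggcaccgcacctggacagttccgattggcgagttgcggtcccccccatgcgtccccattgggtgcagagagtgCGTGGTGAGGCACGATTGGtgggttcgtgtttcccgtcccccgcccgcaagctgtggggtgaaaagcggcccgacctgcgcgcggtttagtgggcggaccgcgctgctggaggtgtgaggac
Hsp90b1, the Hsp90 of this compartment, rose by 0.32 (adjusted p = 0.0151; 0.0501 without CTSD replicate 2). Hspa5, its Hsp70, had 1409 ± 18.6 FPKM in CTSD cells and 1269 ± 67.7 FPKM in empty-vector AGEs cells (0.15, adjusted p = 0.0334) and lost the call in 10 alternatives, among them leaving out empty-vector AGEs replicate 1 or 2 or any 1 CTSD library (adjusted p up to 0.103) and median-of-ratios scaling (adjusted p = 0.152).

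Genes of translocation into the endoplasmic reticulum and of its transport coats split. Of 42 genes 11 rose and 9 fell (median -0.05, range 7 to 11 and 8 to 13, 7 and 11 with the density trend removed). The COPII coat gave an example of each, with Sec23a at 12.2 ± 1.03 FPKM in CTSD cells and 20.7 ± 3.86 FPKM in empty-vector AGEs cells (-0.71, adjusted p = 0.00409) and Sec24c at 153 ± 3.16 FPKM in CTSD cells and 107 ± 3.18 FPKM in empty-vector AGEs cells (0.51, adjusted p = 4.2e-05). Stt3a, a catalytic subunit of oligosaccharyltransferase (-0.46, adjusted p = 3.49e-05), and Spcs3, of the signal peptidase (-0.61, adjusted p = 0.0123), fell. The stress factor ATF4 raises amino acid supply, and 5 of 23 genes of that list rose and 1 fell (median 0.08, range 4 to 5 and 0 to 2, 5 and 2 with the density trend removed, 4 and 2 with median-of-ratios scaling, 0 fell without any 1 CTSD library or empty-vector AGEs replicate 1 or 3 or any 1 empty-vector BSA library). That is a share called of 26.09%, against 30.7% of all tested genes. Atf4 itself had 354 ± 8.78 FPKM in CTSD cells and 269 ± 4.37 FPKM in empty-vector AGEs cells (0.40, adjusted p = 4.82e-05) and 434 ± 10.5 FPKM in BSA cells. Pycr1, of proline synthesis (0.65, adjusted p = 0.000911), and Phgdh, of serine synthesis (0.43, adjusted p = 5.31e-05), rose.

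In the lists of RNA processing more genes fell than rose. SR proteins bind exons and recruit the splicing machinery, and hnRNPs package nascent RNA and often oppose them. Of 27 SR proteins and their kinases 10 fell and 3 rose (median -0.08, range 10 to 12 and 1 to 4, 12 and 1 with the density trend removed, 11 and 1 with median-of-ratios scaling). Srsf6 had 41.04, 48.2 and 44.1 FPKM in CTSD cells, against 91.9, 87.4 and 95.3 FPKM in empty-vector AGEs cells. Srsf2 had 189, 205 and 201 FPKM in CTSD cells, against 345, 350.2 and 334 FPKM in empty-vector AGEs cells. Neither overlapped between the groups (log2 fold change -1.03, SE 0.07, adjusted p = 5.79e-06 for Srsf6, and log2 fold change -0.79, SE 0.04, adjusted p = 3.06e-06 for Srsf2). Tra2b (-0.74, adjusted p = 2.31e-05), Srsf3 (-0.66, adjusted p = 3.54e-05) and the SR kinase gene Clk4 (-0.71, adjusted p = 0.00281) fell with them. Of 34 hnRNPs and relatives 22 fell and 2 rose (median -0.27, range 20 to 26 and 1 to 2). Sfpq, a paraspeckle protein, had 52.8, 56.1 and 54.8 FPKM in CTSD cells, against 103, 101 and 105 FPKM in empty-vector AGEs cells, without overlap (log2 fold change -0.90, SE 0.05, adjusted p = 3.48e-06). Hnrnpu, a nuclear scaffold protein, had 421 ± 6.45 FPKM in CTSD cells and 699 ± 31.97 FPKM in empty-vector AGEs cells (-0.73, adjusted p = 3.48e-06), and Hnrnpm 289 ± 10.6 FPKM in CTSD cells and 491 ± 22.4 FPKM in empty-vector AGEs cells (-0.76, adjusted p = 4.08e-06). Ptbp3, of the polypyrimidine tract binding family (-0.87, adjusted p = 0.0088), and Syncrip (-0.70, adjusted p = 0.000419) fell too, and Hnrnph3 was a riser at low level (0.80, adjusted p = 0.00937).

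The spliceosome itself was more mixed. Of 61 core genes 18 fell and 8 rose (median -0.07, range 14 to 27 and 4 to 10, 27 and 4 with the density trend removed, 5 rose without CTSD replicate 2). The branch site protein gene Sf3b1 had 108 ± 4.44 FPKM in CTSD cells and 185 ± 32.7 FPKM in empty-vector AGEs cells (-0.76, adjusted p = 0.000351), while Sf3b5 of the same complex had 137 ± 10.8 FPKM in CTSD cells and 90.9 ± 9.59 FPKM in empty-vector AGEs cells (0.59, adjusted p = 0.00395). Dhx15, a helicase that takes spliceosomes apart (-0.80, adjusted p = 8.68e-06), and Aqr, an intron-binding helicase (-0.68, adjusted p = 0.00038), fell. In nuclear export and RNA degradation 8 of 23 genes fell and 1 rose (median -0.21, range 4 to 11 and 0 to 1, 9 and 0 with the density trend removed, 4 fell without empty-vector AGEs replicate 1, 5 fell without CTSD replicate 1 or 3, 0 rose without CTSD replicate 1 or 3 or empty-vector AGEs replicate 1 or 3). Next to Thoc5, the RNA exosome gene Exosc9 had 9.55, 5.18 and 7.46 FPKM in CTSD cells, against 21.3, 14.2 and 18.4 FPKM in empty-vector AGEs cells, without overlap (log2 fold change -1.19, SE 0.19, adjusted p = 0.0011), and Exosc7 fell as well (-0.66, adjusted p = 0.0126). Of 50 nucleoporins and nuclear transport receptors 20 fell and 4 rose (median -0.17, range 16 to 26 and 1 to 4, 25 and 1 with the density trend removed, 2 rose without CTSD replicate 3 or empty-vector AGEs replicate 2). Tnpo1, an importer of hnRNPs, had 26.5, 25.1 and 25.2 FPKM in CTSD cells, against 49.9, 48.7 and 53.03 FPKM in empty-vector AGEs cells, without overlap (log2 fold change -0.95, SE 0.07, adjusted p = 8.68e-06). Its relative Tnpo2 went the other way (0.55, adjusted p = 0.000336). Kpna4, an importin alpha (-0.61, adjusted p = 0.000184), Nup50 (-0.61, adjusted p = 0.00755), Ndc1, a membrane nucleoporin (-0.61, adjusted p = 0.000391), and the exportin gene Xpo4 (-0.65, adjusted p = 0.0109) fell.

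**Figure D4:**
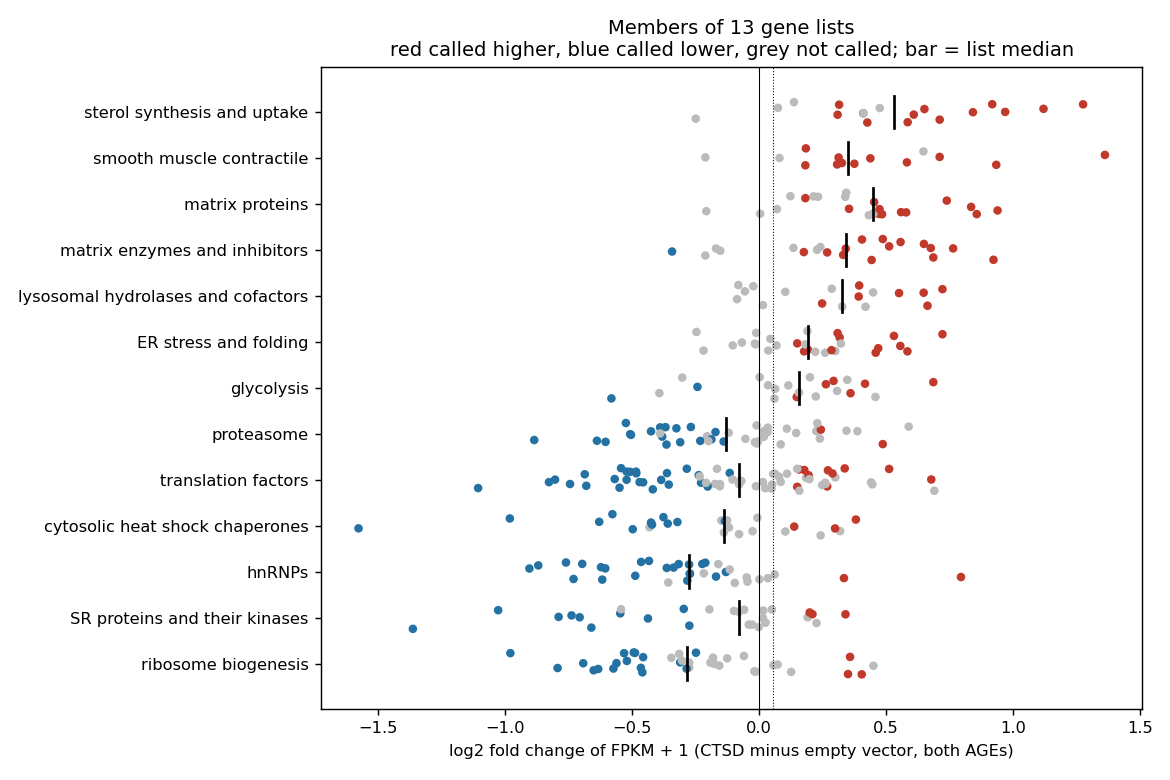
Log2 fold change with CTSD (horizontal) of every tested member of 13 lists, with called members in red (higher) or blue (lower), others in grey, a bar at each list's median and a dotted line at the median of all tested genes (0.055). Sterol, contractile and matrix genes lie mostly to the right, with medians of 0.53, 0.35 and 0.45, and hnRNPs and ribosome biogenesis genes mostly to the left, with medians of -0.27 and -0.285.

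Among genes of ribosome assembly and translation more fell than rose. Of 37 ribosome biogenesis genes 17 fell and 3 rose (median -0.285, range 13 to 19 and 2 to 3). Npm1, nucleophosmin, had 132, 140.3 and 158 FPKM in CTSD cells, against 278, 248 and 327 FPKM in empty-vector AGEs cells. Ncl, nucleolin, had 128, 142 and 139.5 FPKM in CTSD cells, against 202, 192 and 278 FPKM in empty-vector AGEs cells. In both nucleolar genes the CTSD libraries were the lowest (log2 fold change -0.98, SE 0.10, adjusted p = 5.28e-05 for Npm1, and log2 fold change -0.69, SE 0.13, adjusted p = 0.00285 for Ncl). Wdr12 (-0.79, adjusted p = 0.000179), Utp4 (-0.65, adjusted p = 3.87e-05) and Utp18 (-0.57, adjusted p = 0.000187), assembly factors of the large and small subunits, fell with them. Of 66 translation factors 25 fell and 10 rose (median -0.08, range 23 to 28 and 6 to 11, 26 and 6 with median-of-ratios scaling). Eif5, which triggers GTP hydrolysis at the start codon, had 32.4, 38.3 and 36.1 FPKM in CTSD cells, against 74.8, 69.2 and 90.1 FPKM in empty-vector AGEs cells, without overlap (log2 fold change -1.11, SE 0.10, adjusted p = 3.13e-05). Eif2s1, the alpha subunit of eIF2 that stress kinases phosphorylate (-0.80, adjusted p = 3.62e-05), the release factor gene Etf1 (-0.74, adjusted p = 3.55e-05), the recycling factor gene Abce1 (-0.83, adjusted p = 0.0029) and Eif4g2 (-0.68, adjusted p = 2.41e-05) fell. Of 20 tRNA synthetase genes 6 fell and 3 rose (median -0.14, range 4 to 8 and 0 to 3, 7 and 0 with the density trend removed), among them Farsb (-0.71, adjusted p = 0.000419) and Kars (-0.45, adjusted p = 0.00013).

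Ribosomal protein genes, in contrast to the assembly factors, had a median at the background. The cytosolic ones were called in a share (28.99%) near the 30.7% of all tested genes. Of 69 cytosolic ones 12 rose and 8 fell (median 0.05, range 5 to 16 and 5 to 16, 5 and 11 with the density trend removed, 7 and 13 with median-of-ratios scaling, 7 rose without CTSD replicate 3 or empty-vector AGEs replicate 3, 5 fell without CTSD replicate 3, 14 fell without empty-vector AGEs replicate 3). Rps29 (0.62, adjusted p = 0.00732) and Rps27 (0.43, adjusted p = 0.00397) rose and Rps3a (-0.43, adjusted p = 0.00682) fell. These genes, like Hspa8 and Npm1, have near-identical copies in the genome, and how reads on such copies were counted is not given in the sources used here. Of 38 mitochondrial ribosomal proteins 4 rose and 5 fell (median 0.04, range 1 to 5 and 3 to 5, 1 and 4 with the density trend removed, 2 rose without CTSD replicate 1, 3 fell without CTSD replicate 1 or 3 or empty-vector AGEs replicate 1 or 2). Mrps22 fell (-0.74, adjusted p = 0.000469), and so did Mrpl13 (-0.43, adjusted p = 0.000252).

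Among replication genes more fell than rose, and few mitotic genes passed in either direction. Of 38 replication genes 11 fell and 2 rose (median -0.11, range 10 to 12 and 1 to 2, 12 and 1 with median-of-ratios scaling, 1 rose without CTSD replicate 1 or 3 or empty-vector AGEs replicate 1 or 3 or any 1 empty-vector BSA library). Pcna, the sliding clamp, had 135, 125 and 112 FPKM in CTSD cells, against 187, 187 and 191 FPKM in empty-vector AGEs cells. The groups did not overlap (log2 fold change -0.60, SE 0.06, adjusted p = 6.33e-05). The helicase subunit genes Mcm3 (-0.72, adjusted p = 0.000553), Mcm6 (-0.41, adjusted p = 0.00183) and Mcm4 (-0.37, adjusted p = 0.0038) and the ribonucleotide reductase gene Rrm1 (-0.62, adjusted p = 0.000124) fell, and the polymerase gene Pold1 rose (0.44, adjusted p = 0.000331). Of 40 mitotic genes 4 rose and 3 fell (median -0.04, range 3 to 7 and 1 to 5, 3 and 5 with the density trend removed, 1 fell without CTSD replicate 1 or empty-vector AGEs replicate 1). Cdc20, which activates the anaphase-promoting complex, had 886, 861 and 844 FPKM in CTSD cells, against 698, 698 and 674 FPKM in empty-vector AGEs cells (0.32, adjusted p = 0.000131), and the phosphatase gene Cdc25b 21.8 ± 1.36 FPKM in CTSD cells and 14.6 ± 1.48 FPKM in empty-vector AGEs cells (0.55, adjusted p = 0.00148). Ccna2, cyclin A2, fell (-0.28, adjusted p = 0.0093). Among cell cycle inhibitors and p53 targets 6 of 14 rose and 0 fell (median 0.27, range 4 to 6 and 0 throughout), including Btg1 (0.46, adjusted p = 5.01e-05), Plk3 (0.41, adjusted p = 0.000772) and Phlda3 (0.39, adjusted p = 0.0025).

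In insulin and FOXO signalling 7 of 23 genes rose and 2 fell (median 0.15, range 5 to 8 and 2 throughout). Fold changes in this list ran from -0.94 to 0.58, so the largest in size was below 0. Akt2, a kinase downstream of PI3-kinase, had 57.5, 51.7 and 57.1 FPKM in CTSD cells, against 41.7, 42.4 and 40.7 FPKM in empty-vector AGEs cells. The CTSD libraries lay apart, above (log2 fold change 0.41, SE 0.06, adjusted p = 0.000722). Mtor (0.41, adjusted p = 0.00966) and Igfbp4, which binds insulin-like growth factors (0.42, adjusted p = 0.0029), rose. In the list of MAP kinases, growth factors and their feedback genes 9 of 30 rose and 2 fell (median 0.15, range 6 to 10 and 1 to 5, 9 and 4 with the density trend removed, 7 and 5 with median-of-ratios scaling, 1 fell without CTSD replicate 3). Mapk3, the kinase ERK1, had 315 ± 6.399 FPKM in CTSD cells and 216 ± 3.84 FPKM in empty-vector AGEs cells (0.54, adjusted p = 1.73e-05). The feedback genes Dusp5, a nuclear ERK phosphatase (0.67, adjusted p = 0.00138), and Spry2, a Sprouty inhibitor (0.53, adjusted p = 0.00309), and the cytokine gene Lif (0.90, adjusted p = 0.00204) rose. Immediate early genes did not share a direction, with 7 of 19 higher and 3 lower (median 0.18, range 3 to 7 and 2 to 3, 3 and 3 with the density trend removed). Egr1 had 176, 181 and 181 FPKM in CTSD cells, against 269, 261 and 286 FPKM in empty-vector AGEs cells, and Egr3 had 18.02, 20.3 and 20.2 FPKM in CTSD cells, against 8.67, 7.72 and 9.88 FPKM in empty-vector AGEs cells. The EGR genes, close relatives, lay on opposite sides, each without overlap (log2 fold change -0.60, SE 0.05, adjusted p = 1.42e-05 for Egr1, and log2 fold change 1.08, SE 0.10, adjusted p = 4.63e-05 for Egr3). Klf6 fell (-0.54, adjusted p = 0.000969) and Fosb rose (0.73, adjusted p = 0.00314). In TGF-beta and BMP signalling 3 of 28 genes rose and 3 fell (median -0.01, range 1 to 4 and 1 to 5, 1 and 3 with the density trend removed, 3 and 5 with median-of-ratios scaling, 1 fell without CTSD replicate 3 or empty-vector AGEs replicate 3). Smad2 fell (-0.32, adjusted p = 0.00995) and the procollagen protease gene Bmp1 rose (0.27, adjusted p = 0.00403).

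Stress and inflammatory lists differed in how many genes passed, at 0% of the NF-kB list, 13.64% of hypoxia genes, 37.04% of NRF2 genes and 57.14% of AGE binding genes, against 30.7% of all tested genes. In the NF-kB, cytokine and chemokine list 0 of 13 tested genes passed limma (unadjusted p under 0.05 in 1; 1 called by voom, 1 lower with median-of-ratios scaling and 2 lower with the density trend removed, 1 lower without empty-vector AGEs replicate 3), and 17 of its 37 genes were listed at 0 in every library. Of 27 antioxidant genes of NRF2 6 rose and 4 fell (median 0.10, range 1 to 7 and 2 to 6, 1 and 4 with the density trend removed, 2 fell without CTSD replicate 2 or 3 or empty-vector AGEs replicate 1 or 3 or any 1 empty-vector BSA library). Gclc, which sets glutathione synthesis (-0.72, adjusted p = 0.000696), and Gpx8, a peroxidase of the endoplasmic reticulum (-0.52, adjusted p = 0.000719), fell. Of 22 hypoxia genes 2 rose and 1 fell (median 0.01, range 0 to 2 and 1 to 2, 0 and 1 with the density trend removed, 1 and 2 with median-of-ratios scaling, 0 rose without CTSD replicate 3 or empty-vector AGEs replicate 1, 1 rose without CTSD replicate 2), the faller being P4ha1, a collagen prolyl hydroxylase (-0.34, adjusted p = 0.00209). In the list of AGE binding and detoxification 4 of 7 tested genes rose and 0 fell (median 0.31, range 3 to 4 and 0 throughout). Scarb1, a scavenger receptor (0.62, adjusted p = 0.000154), Ddost, also described as an AGE-binding protein (0.36, adjusted p = 0.00592), and Akr1a1, an aldehyde reductase (0.31, adjusted p = 0.000658), were among them. Of 4 osteogenic genes 0 passed (unadjusted p under 0.05 in 1, 0 called by voom, 1 lower without empty-vector BSA replicate 2), and of 8 Notch genes 0 passed (2 unadjusted, 1 by voom, 1 higher without CTSD replicate 1).

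Endosomal traffic, through which cathepsin D reaches the lysosome, moved in both directions. Of 77 sorting and endosome genes 18 rose and 17 fell (median 0.07, range 10 to 20 and 13 to 23, 10 and 19 with the density trend removed). The largest changes were falls, among them in sorting nexins and in the retromer, which returns sorting receptors from endosomes. Vps35 had 57.7, 55.5 and 59.9 FPKM in CTSD cells, against 90.8, 80.4 and 119.7 FPKM in empty-vector AGEs cells. Vps26a had 44.5, 52.2 and 47.8 FPKM in CTSD cells, against 77.3, 72.5 and 94.6 FPKM in empty-vector AGEs cells. In both genes the CTSD libraries were the lower ones, without overlap (log2 fold change -0.72, SE 0.12, adjusted p = 0.00142 for Vps35, and log2 fold change -0.74, SE 0.10, adjusted p = 0.000274 for Vps26a). Snx7 (-0.87, adjusted p = 0.00962), Snx6 (-0.76, adjusted p = 0.000298), Snx2 (-0.70, adjusted p = 4.2e-05) and Vps41, of the HOPS tether (-0.68, adjusted p = 0.000223), fell. Of 35 Rab GTPases 8 rose and 3 fell (median 0.04, range 4 to 9 and 3 to 5, 4 and 4 with the density trend removed, 7 and 5 with median-of-ratios scaling). The Rab share called (31.43%) was near the 30.7% of all tested genes, so this count is no result about the family. Rab4b, of endosome recycling, had 27.5, 28.2 and 24.97 FPKM in CTSD cells, against 10.8, 16.2 and 11.5 FPKM in empty-vector AGEs cells, without overlap (log2 fold change 1.03, SE 0.13, adjusted p = 0.000266). The early endosome genes differed in direction, with Rab5b at 58.2 ± 4.73 FPKM in CTSD cells and 38.2 ± 1.52 FPKM in empty-vector AGEs cells (0.59, adjusted p = 0.00034) and Rab5a at 23.1 ± 0.861 FPKM in CTSD cells and 32.1 ± 4.39 FPKM in empty-vector AGEs cells (-0.45, adjusted p = 0.00714).

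**Figure D5:**
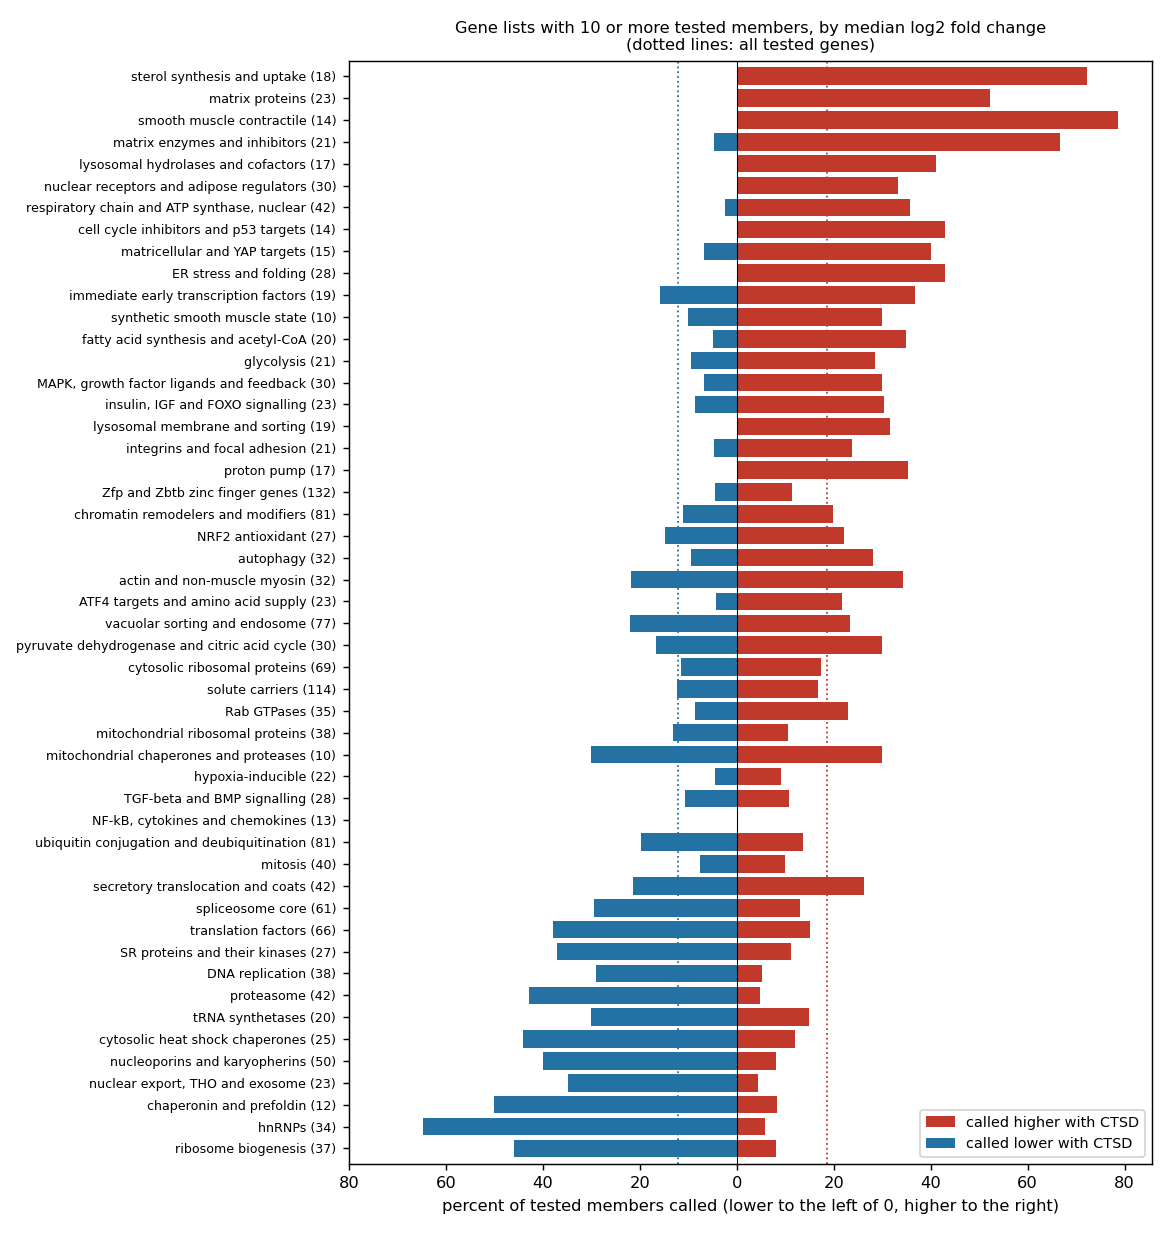
Percentage of tested members called higher (red, right of 0) or lower (blue, left of 0) with CTSD in each list with 10 or more tested members (number in brackets), ordered by median log2 fold change, with dotted lines at the shares of all tested genes (18.6% higher, 12% lower). Sterol genes stand at the top with 13 of 18 called higher, and ribosome biogenesis at the bottom with 17 of 37 called lower.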

How the data were processed

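RNA of cultured rat aortic smooth muscle cells was sequenced after poly-T capture as 150-base read pairs, per the labels' protocols. The deposited table holds FPKM values that the authors computed per gene. No source used here gives the aligner or annotation, and the submitters' processing notes name the mouse build mm10 while identifiers and positions are those of rat, so positions are printed without a build. Multiplying FPKM by gene length gave near-whole multiples of 1 value per library (99.14% to 99.44% of values under 200 fragments within 0.1 of a whole number), and from these the fragments per gene. Reads were not stated to be counted by strand, so a gene and an overlapping antisense gene cannot be told apart.

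A gene was tested where 3 or more of the 9 libraries reached 1 FPKM (Rab32 just inside, with a third-highest value of 1.0004, and Robo2 just outside, at 0.9999). The log2(FPKM + 1) values of all 9 libraries were fitted in R 4.3.3 by limma 3.58.1 (a mean per group, variance trend, two-sided), and the calling threshold was an adjusted p of 0.05 after Benjamini and Hochberg. The fitting script was tested on simulated data. Tables and figures were made with python 3.11.15, pandas 2.3.3 and matplotlib 3.10.9. The genes, the 66 lists and the naming rule were chosen from general knowledge with earlier results of these data known. Of 1252 list entries 1211 matched by symbol and 9 through RefSeq synonyms. Named are the 5 given genes (Ctsd, Acta2, Acss2, Hspa8 and Srsf1), the 15 largest rises and falls among called genes with a proper symbol, 5 FPKM or more on average in the higher group, a model of 300 bases or more and no overlap, and up to 6 called members per list. Of these the text prints mainly genes called under every alternative. Hspa5, Hsp90b1, Slc2a1, Ldha, Hk1, Hk2, Srebf2 and Fasn were added after their values were seen.

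Alternatives were a replicate block, quantile normalization, median-of-ratios scaling, no filter, an average of 5 FPKM or more, the 6 libraries alone, 0.1 as pseudocount, voom on recovered fragments, removal of a length trend and leaving out each library. Removal of a gene density trend was added after seeing the data. Promoter sequences are those of RefSeq, GRCr8.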

Additional observations from a re-analysis of the deposited data

How the results depend on the processing

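Ctsd kept its call in every alternative, with a log2 fold change of 3.69 to 3.84. The count of called genes was 2617 and came to 2620 with a pseudocount of 0.1, 2366 with no filter, 2580 with a mean of at least 5 FPKM, 2502 with median-of-ratios scaling, 2551 with quantile normalization, 2378 with the 6 libraries alone, 2756 with voom and 2551 with the length trend removed. Leaving out 1 library gave 2095 to 2524 calls, 1262 to 1528 of them higher and 833 to 998 lower. With the gene density trend removed 1037 genes were higher, against 1591, the 1 count over all genes to move by over 1.5 times, and 1253 were lower. The cause was not tested. In that setting Atp6v0c (-0.058, adjusted p = 0.389) and Taldo1 (-0.059, adjusted p = 0.318) changed sign. The share of calls that were higher was 45.3% there, 49.2% with the length trend removed, 49.0% and 52.4% with the other scalings and 58.6% to 61.1% otherwise. Same-numbered libraries of the CTSD and empty-vector AGEs groups had residual correlations of 0.08, -0.04 and 0.07. Values this small, from 3 libraries per group, cannot decide whether the numbers pair the samples. With the replicate number as a block 2581 genes passed, 1551 higher and 1030 lower. CTSD replicates 1 and 3 correlated best with the empty-vector AGEs library of their own number, and CTSD replicate 2 with replicate 3 (0.053). Of 321 called genes that the rule or the additions name, 240 kept the call in every alternative, 55 lost it with the density trend removed, 49 with a library left out, 16 with another scaling, 9 with the block and 5 with voom. Depth limits the low end: 3 fragments in a gene of 1 kilobase equal 0.562 to 0.668 FPKM, and counting error is the only error this covers.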

Other observations

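Of the families below, nuclear receptors (33.33%), chromatin genes (30.86%), solute carriers (28.95%) and ubiquitin genes (33.33%) were called in shares near the 30.7% of all tested genes, and zinc finger genes at 15.91%, so the counts are no result about the families and single genes are given. Of 30 nuclear receptors and adipose regulators 10 rose and 0 fell (median 0.28, range 7 to 11 and 0 to 2, 7 and 1 with the density trend removed, 10 and 1 with median-of-ratios scaling, 1 fell without CTSD replicate 1 or empty-vector AGEs replicate 3). Thra, the thyroid hormone receptor alpha gene, had 250.3, 266 and 249.7 FPKM in CTSD cells, against 144, 154 and 147 FPKM in empty-vector AGEs cells. The groups did not overlap (log2 fold change 0.78, SE 0.04, adjusted p = 3.48e-06). The retinoic acid receptor genes Rarg (0.57, adjusted p = 0.00123) and Rara (0.45, adjusted p = 0.000272) and the orphan receptor gene Nr2f1 (0.53, adjusted p = 0.00264) rose too. Of 81 chromatin genes 16 rose and 9 fell (median 0.10, range 11 to 22 and 5 to 12, 5 fell without empty-vector AGEs replicate 3). Kdm6b, a demethylase of lysine 27 of histone H3, had 20.2, 18.3 and 20.6 FPKM in CTSD cells, against 10.5, 10.02 and 11.4 FPKM in empty-vector AGEs cells. Ezh2, the methyltransferase for the same residue, had 41.9, 45.3 and 48.1 FPKM in CTSD cells, against 63.5, 64.1 and 74.2 FPKM in empty-vector AGEs cells. These opposing enzymes lay on opposite sides, each without overlap (log2 fold change 0.83, SE 0.10, adjusted p = 0.000169 for Kdm6b, and log2 fold change -0.56, SE 0.07, adjusted p = 0.000347 for Ezh2). Hdac1, a histone deacetylase, fell (-0.59, adjusted p = 5.49e-05).

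Of 81 ubiquitin genes 16 fell and 11 rose (median -0.04, range 12 to 22 and 5 to 15, 22 and 6 with the density trend removed, 18 and 5 with median-of-ratios scaling, 5 rose without CTSD replicate 3, 7 rose without CTSD replicate 1 or 2). The conjugating enzyme gene Ube2e1 had 234 ± 5.91 FPKM in CTSD cells and 371 ± 12.4 FPKM in empty-vector AGEs cells (-0.66, adjusted p = 1.35e-05), and the deubiquitinase gene Usp7 fell (-0.46, adjusted p = 0.00638). Of 114 solute carriers 19 rose and 14 fell (median 0.04, range 9 to 20 and 9 to 19, 9 and 14 with the density trend removed, 9 fell without CTSD replicate 2). Of 132 zinc finger genes of the Zfp and Zbtb families 15 rose and 6 fell (median 0.12, range 8 to 18 and 4 to 8, 9 and 7 with median-of-ratios scaling, 8 rose without empty-vector AGEs replicate 1, 9 rose without CTSD replicate 1). Zfp36l1, which destabilizes mRNAs with AU-rich elements, had 139 ± 3.76 FPKM in CTSD cells and 95.2 ± 1.205 FPKM in empty-vector AGEs cells (0.54, adjusted p = 1.86e-05).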
